A study of Mus musculus with 10 samples.

Results

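The 8 immunoglobulin heavy-chain constant genes Ighm, Ighd, Ighg3, Ighg1, Ighg2b, Ighg2c, Ighe and Igha were followed in the RNA of single mouse spleen cells. They are 8 of the 31053 genes in the RNA matrices, taken by name, and no measured value chose them. BXD2, the recombinant inbred strain used, develops germinal centers (GCs) and autoantibodies without immunization. The groups were 3 BXD2-p19-/- mice, which are deficient in IL-23 through loss of its p19 chain (2 females and 1 male, p19-/- 3), and 2 female BXD2 wild-type (WT) mice, all on the BXD2 background; ages were not given in the labels. Each mouse gave 1 RNA library of droplet-captured single cells (10x 5' kit) and 1 V(D)J library of the B cell receptors (BCRs) of the same cells, so that the constant gene seen in RNA could be set beside the constant gene of the assembled heavy chain. The series title links IL-23 to switching toward IgG2b. Where 5 values follow each other, they stand for p19-/- 1, 2 and 3 and then WT 1 and 2.

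A B cell first joins its rearranged VDJ exon to Ighm and, by alternative processing of the same long RNA, to Ighd. Class-switch recombination then deletes the DNA between the switch region of Ighm and that of a constant gene further along the chromosome, and it is preceded by transcription of that unrearranged constant gene from its own I-exon promoter, giving germline (sterile) transcripts without a V exon. The cytokine and receptor signals that a B cell receives set which I promoters are active, and plasma cells carry very high levels of the finished, secreted heavy-chain RNA. A 5' UMI count of a constant gene sums all of these RNA forms and does not separate them.

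All 8 genes lie on chromosome 12 and are annotated as constant regions in the mm10-type assembly GRCm38.p6. From Ighm downstream, in the order in which switching meets them, they are Ighm at chr12:113418826-113422730, Ighd at chr12:113407535-113416324, Ighg3 at chr12:113357442-113361232, Ighg1 at chr12:113326541-113330523, Ighg2b at chr12:113304314-113307933, Ighg2c at chr12:113287389-113288932, Ighe at chr12:113269263-113273248 and Igha at chr12:113256204-113260236. Ighg2b and Ighg2c are near-identical over long stretches, so that reads, and contig calls, could be split between them; values of this pair are uncertain to that extent.

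The 5 RNA libraries held 11355 barcodes and 69958493 UMIs (7712457 to 18093053 per library), of which 9170 cells were kept, with medians of 3887 to 5218 UMIs per cell. Of 4118 cells with a productive heavy-chain contig, 3430 (83.3%) were among them. The genotype could not be checked from RNA: no library held a UMI of the p19 gene Il23a (0 in each), which allows up to 0.166 to 0.389 CPM, UMIs scaled to a common library total. Across libraries 45 barcodes were shared. Clusters were called GC B-like (2873 cells), mature non-GC B-like (620), plasma cell-like (237), T-like (3824) and macrophage or monocyte-like (560) from marker genes, with immunoglobulin genes left out of the clustering. Summed levels of the 7 B cell markers were 3183 to 4526 CPM in GC B-like and 33.4 to 163 CPM in T-like cells.

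Plasma cell-like cells held the highest level of every IgG gene, Ighm and Igha in the mean over mice, and their values spread most. Ighm, the constant gene of IgM, stood at 8515, 10682, 11756, 8009 and 17537 CPM of the plasma cell-like sums, against 249, 224, 710, 245 and 321 CPM in GC B-like cells and 686, 480, 891, 630 and 478 CPM in mature non-GC B-like cells. No plasma cell-like sum overlapped the other classes, while GC B-like p19-/- 3 lay within the mature range. Ighd, the constant gene of IgD, was at 104, 69.6, 149, 158 and 78.3 CPM in mature non-GC B-like cells and at 3.91, 1.52, 5.19, 1.73 and 4.57 CPM in GC B-like cells, with no overlap. Plasma cell-like cells gave 1 Ighd UMI in all, in p19-/- 3.

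Of the IgG genes, Ighg1 stood at 554, 254, 418, 250 and 283 CPM in GC B-like cells and at 502, 313, 314, 250 and 789 CPM in mature non-GC B-like cells. The 2 classes overlapped, and 60.8% of the Ighg1 UMIs behind the 789 CPM of WT 2 came from 1 cell. Ighg2b was at 248, 133, 128, 226 and 165 CPM in GC B-like and at 153, 187, 152, 221 and 212 CPM in mature non-GC B-like cells, again overlapping. Ighg2c ranged from 82.0 to 211 CPM in GC B-like and from 78.1 to 256 CPM in mature non-GC B-like cells, and Ighg3 from 15.6 to 82.8 CPM and from 12.3 to 68.4 CPM.

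Ighe, the constant gene of IgE, ranged from 8.63 to 25.3 CPM in GC B-like and from 5.15 to 47.5 CPM in mature non-GC B-like cells. Igha, the constant gene of IgA, ranged from 16.6 to 51.1 CPM and from 42.1 to 87.3 CPM. On average over mice, plasma cell-like cells held 85.7% ± 8.21 (SD, n = 5) of a library's Igha UMIs in kept cells, 62.2% ± 15.1 of Ighg2b and 43.1% ± 19.5 of Ighm, but GC B-like cells held 58.7% ± 25.9 of Ighe and plasma cell-like cells 26.5% ± 28.8.

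Single cells carried many of the plasma cell-like sums, which rest on 19, 14, 74, 64 and 66 cells. One cell held 99.0% of the 205 Ighe UMIs of WT 1 and 86.2% of the 275 of WT 2, and 98.3% of the Igha UMIs of WT 2. In p19-/- 2, 1 cell held 97.7% of Ighg2b and 98.9% of Igha. Plasma cell-like values therefore describe few cells per mouse.

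**Figure D1:**
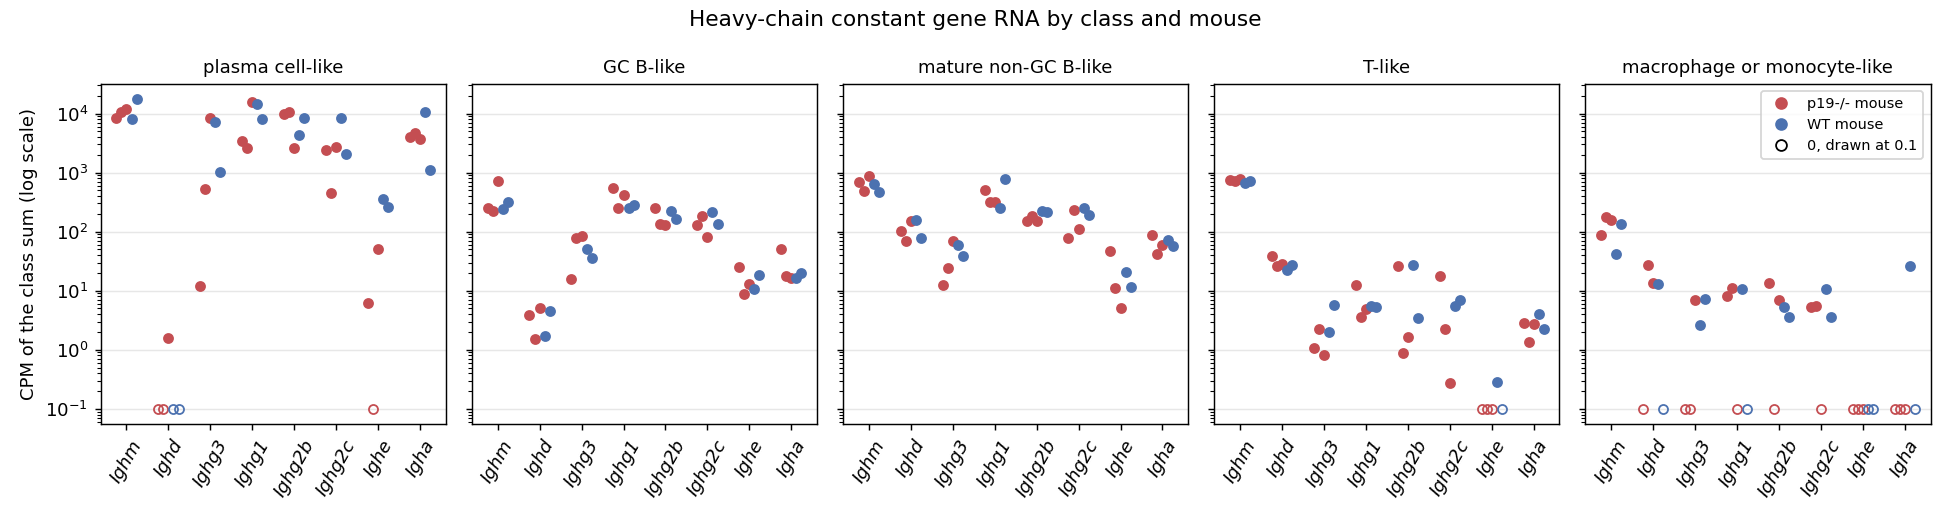
CPM of each constant gene (log axis) in the summed counts of 5 cell classes, 1 point per mouse, red for p19-/- and blue for WT, open at 0.1 where no UMI was seen. By their means plasma cell-like cells sit highest except for Ighd, although single p19-/- mice reach only 12.2 CPM for Ighg3 and 0 for Ighe, and T-like cells reach 679 to 794 CPM for Ighm but at most 26.9 CPM for the IgG genes.

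GC B-like cells were compared with mature non-GC B-like cells of the same mice in edgeR, with mouse as a block; 5207 of 9773 genes tested (53.3%) passed an adjusted p of 0.05, 26.7% being lower in GC. Of the 8 constant genes 3 passed, all lower in GC B-like cells. Ighd fell by 5.19 on the log2 scale (SE 0.27, edgeR adjusted p = 4.16e-08), Igha by 1.67 (SE 0.18, adjusted p = 1.39e-05) and Ighm by 1.09 (SE 0.14, adjusted p = 6.39e-05). The log2 differences of the others were 0.16 (Ighg3), -0.37 (Ighg1), -0.21 (Ighg2b), -0.35 (Ighg2c, edgeR adjusted p = 0.0646) and -0.27 (Ighe). Without p19-/- 1, Ighg2b at -0.40 (edgeR adjusted p = 0.00647) and Ighg2c at -0.53 (adjusted p = 0.000337) also passed. The classes differ in how many of their cells have switched contigs, and a lower class sum cannot tell fewer cells with a transcript from less of it per cell.

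Between genotypes, none of the constant genes passed in any class. At an unadjusted p under 0.05, edgeR's test named Ighg2b in mature non-GC B-like, Ighe in plasma cell-like and Igha in IgM GC B-like cells, and DESeq2 called no member after adjustment. In GC B-like cells edgeR called 2 of 10504 genes (0.019%) and no member. The log2 fold change of p19-/- over WT was -0.24 (SE 0.28, edgeR adjusted p = 0.840) for Ighg2b, -0.46 (SE 0.30) for Ighg2c, 0.60 (SE 0.28, adjusted p = 0.640) for Ighg1, 0.48 (SE 0.47) for Ighm and 0.46 (SE 0.52) for Ighg3. Ighd, Ighe and Igha gave 0.28, 0.05 and 0.56, and the p19-/- and WT ranges of Ighg2b overlapped, with a log2 fold change of 0.01 without WT 1. With no filter on low counts, Ighg1 (0.58, edgeR adjusted p = 0.00266) and Ighg2c (-0.48, adjusted p = 0.0427) passed. The unadjusted p was under 0.05 for 854 genes of GC B-like cells, none of them a constant gene.

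In mature non-GC B-like cells 3 of 7355 genes were called (0.0408%), again no member. Ighg2b was at 153, 187 and 152 CPM in p19-/- and 221 and 212 CPM in WT, without overlap, a log2 fold change of -0.43 (SE 0.16, unadjusted p = 0.0230, edgeR adjusted p = 0.948). Ighg2c, on overlapping values, gave -0.72 (SE 0.37). Whether the genotype effects differed between these classes was tested as an interaction, which called 3 of 9773 genes (0.0307%) and no member; Ighg2b gave 0.16 (SE 0.31, edgeR adjusted p = 1).

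In plasma cell-like cells 4 of 4879 genes were called (0.082%) and no member. The largest member difference was Ighe, with 1, 0 and 33 UMIs in p19-/- and 205 and 275 in WT, a log2 fold change of -3.70 (SE 0.69, edgeR adjusted p = 0.229); this is the gene whose WT UMIs came nearly all from 1 cell per mouse. With no filter on low counts it passed (-3.80, edgeR adjusted p = 1.81e-19). Ighg2b, at 9830, 10554, 2602, 4396 and 8388 CPM, overlapped between genotypes and gave -0.07 (SE 0.75). As a share of all constant-gene UMIs of the class, Ighg2b made up 19.4, 14.8, 8.80, 22.3 and 16.8% in GC B-like cells. That is 14.4% ± 5.33 in p19-/- and 19.6% ± 3.92 in WT mice (exact two-sided permutation test over the 10 splits, p = 0.4, adjusted over the 8 genes 1). The smallest p this design of 3 against 2 mice can give is 0.2, and p-values measure the spread between these mice.

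RNA and contig named the same constant gene in most cells. Over all B classes, the constant gene with the most UMIs in a cell was that of its top heavy-chain contig (the productive one with the most UMIs) in 85.0% ± 2.30 of cells (n = 5 mice). In GC B-like cells the share was 86.9% ± 4.69 for IgM contigs, 88.8% ± 4.55 for IgG1, 89.0% ± 3.50 for IgG2b and 75.3% ± 6.24 for IgG2c. The IgG2c share was 71.5% ± 3.40 in p19-/- and 80.9% ± 5.05 in WT mice (exact two-sided permutation p = 0.2, the smallest possible). The IgM and IgG2b shares lay the other way, at 89.8% ± 3.10 and 91.1% ± 1.77 in p19-/- and 82.5% ± 2.34 and 85.8% ± 2.90 in WT mice (exact permutation p = 0.2 for each). Of 551 GC B-like cells with an IgG2c contig, 434 were led by Ighg2c, 38 by Ighm and 24 by Ighg2b. IgD contigs stood apart: of 53 mature non-GC B-like cells with one, 28 were led by Ighm and 21 by Ighd, genes that share 1 primary RNA.

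Cells with their own isotype's contig showed how much RNA a finished heavy chain gave. IgG2b-contig GC B-like cells held 18.9, 10.8, 13.3, 10.2 and 13.2 Ighg2b UMIs per cell, or 14.3 ± 4.17 in p19-/- and 11.7 ± 2.17 in WT mice (exact two-sided permutation p = 0.4). IgG1-contig cells held 8.67 to 17.8 Ighg1 UMIs and IgG2c-contig cells 6.53 to 8.96 Ighg2c UMIs per cell. The contig numbers behind them were 375 cells for IgG2b, 725 for IgG1 and 558 for IgG2c.

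IgM-contig GC B-like cells, which had not switched by their top contig, were the place to look for RNA of other constant genes. They numbered 491 (15, 28, 246, 120 and 82), so that p19-/- 1 and 2 rest on few cells. Ighg2b reached 8.20, 3.00, 0.313, 1.02 and 0.585 UMIs per cell in them. T-like cells of the same libraries, which should lack IgG RNA and were taken as the background, held 0.115, 0.00461, 0.00697, 0.0908 and 0.0165. Some T-like cells had a productive heavy-chain contig, among them 49 with IgM, 9 with IgG1 and 7 with IgG2b. This background is therefore not shown to be free RNA alone. Every mouse was higher in IgM GC B-like cells, although in p19-/- 1 a single cell gave 109 of the 123 UMIs (88.6%), and in the T-like cells of WT 1 and p19-/- 1 a single cell gave 90.3% and 77.3%.

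The other IgG genes and Igha stood above the T-like level in the same way. Ighg1 averaged 1.83 ± 1.34 UMIs per IgM GC B-like cell against 0.0272 ± 0.0149 per T-like cell, a geometric mean ratio of 62.9 with sums under 3 UMIs in either population taken as 3. The ratio was 61.9 for Ighg3, 56.1 for Ighg2b, 27.1 for Igha and 25.0 for Ighg2c. Each of these genes was higher in 5 of 5 mice (exact two-sided sign-flip permutation test over mice, p = 0.063, the smallest that 5 mice allow; adjusted over 7 genes 0.0729).

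Ighe gave 69 UMIs in 491 IgM GC B-like cells and 1 UMI in 3824 T-like cells (exact 95% interval of the T-like share, counting error only, 0.000662 to 0.146%). Of these 69 UMIs, WT 2 gave 45, 25 of them in 1 cell. Ighd averaged 0.133 ± 0.0776 UMIs per IgM GC B-like cell and 0.124 ± 0.0330 per T-like cell, higher as counted in 2 of 5 mice (ratio 1.12 with the same floor, exact sign-flip p = 0.625). In the fit of all genes, a comparison added after the data were seen, 7239 of 10693 genes differed between IgM GC B-like and T-like cells (67.7%, with 29.3% higher in GC). All 8 members were called on this scale of CPM, 7 higher and Ighd lower, with log2 fold changes of 3.92 (Ighg3), 4.19 (Ighg1), 3.46 (Ighg2b), 2.79 (Ighg2c), 2.90 (Igha), 1.03 (Ighm) and -1.30 (Ighd; edgeR adjusted p = 0.000137). The test of Ighe, at 1 T-like UMI, gave an edgeR adjusted p of 4.12e-07.

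IgM GC B-like cells were sequenced deeper (median 10674 UMIs) than T-like cells (3599.5), so shares of cells were also compared after thinning each cell to 2000 UMIs; 16 and 468 shallower cells were left out. A UMI of Ighg2b was then expected in 11.9, 23.3, 2.61, 9.82 and 4.55% of IgM GC B-like cells, against 0.475% ± 0.344 of T-like cells. Unthinned, the means were 20.8% and 0.897%. Ighg1 was seen in 23.2, 10.7, 9.68, 9.53 and 13.3% against 0.991% ± 0.344, Ighg3 in 2.54 to 8.63% against 0.441% ± 0.315, and Igha in 1.54 to 5.52% against 0.545% ± 0.297. For none of the 6 downstream genes did the IgM GC B-like and T-like ranges overlap, Ighe included at 0.350 to 2.13% against 0.00898%. The share of all genes whose ranges stay apart was not counted, and 67.7% of genes tested differed between these populations in the fit.

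**Figure D2:**
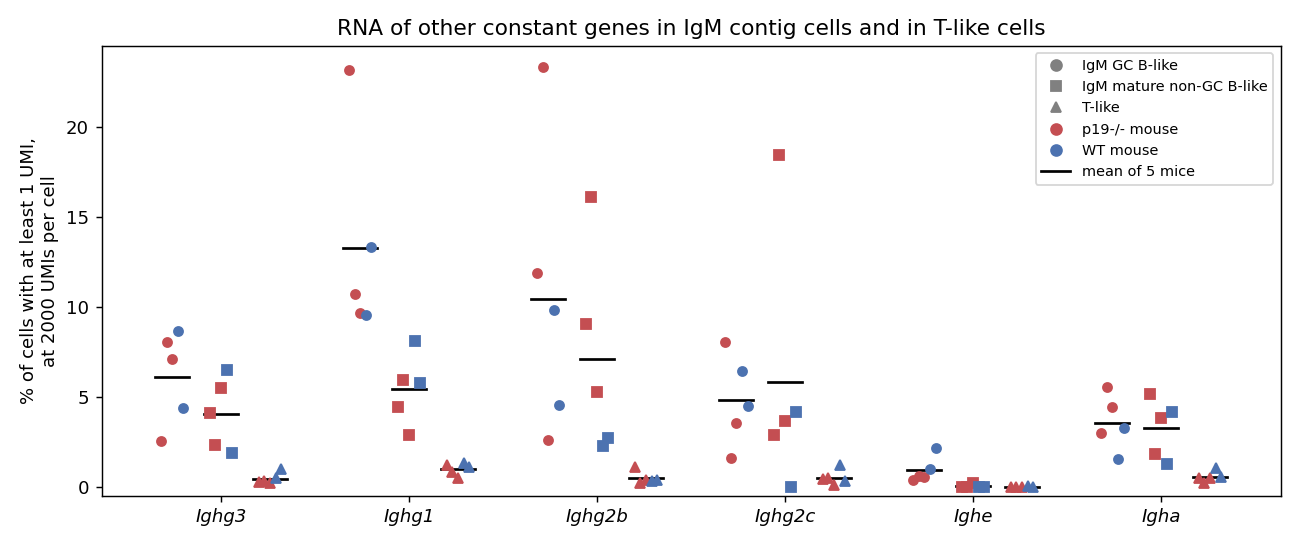
Percentage of cells with at least 1 UMI of each downstream constant gene after thinning to 2000 UMIs per cell, in IgM-contig GC B-like, IgM-contig mature non-GC B-like and T-like cells, 1 point per mouse with the mean as a bar. T-like points lie at 0 to 1.34%, below every IgM GC B-like point of the same gene.

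How many UMIs a cell held differed between the genes. Of the 97 IgM GC B-like cells with an Ighg1 UMI, 70 held 3 or more and 23 held 10 or more, up to 51. Of the 59 with Ighg2b, 40 held 3 or more and 12 held 10 or more, and of the 52 with Ighg2c, 32 held 3 or more. Ighg3 and Igha were mostly at 1 UMI, in 75 of 123 and 71 of 86 cells. In 28 of 489 IgM GC B-like cells with constant-gene RNA the leading gene was Ighg1, in 16 Ighg2b and in 6 Ighg2c.

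**Figure D3:**
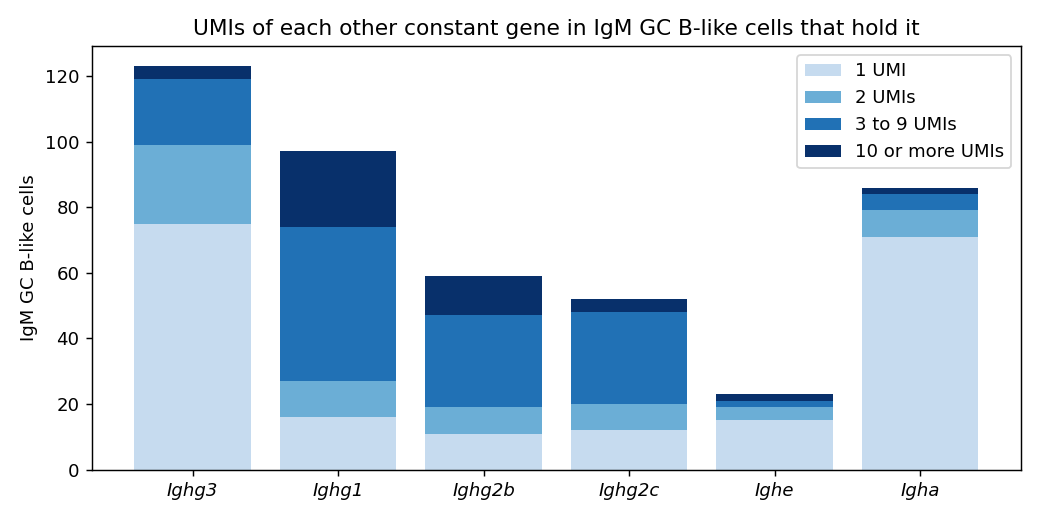
Number of IgM-contig GC B-like cells with 1, 2, 3 to 9, or 10 or more UMIs of each downstream constant gene, pooled over 5 mice. Ighg1, Ighg2b and Ighg2c show mainly cells with 3 or more UMIs, and Ighg3 and Igha mainly cells with 1.

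The V(D)J libraries of the same cells were read for contigs of these genes. They are not independent of the RNA libraries, since both come from the same droplets. Of the 40 IgM GC B-like cells with 3 or more Ighg2b UMIs, 9 also had an assembled contig joined to Ighg2b, all 9 without a called V segment, against 0 of the 432 cells without an Ighg2b UMI. For Ighg1 the numbers were 13 of 70, 4 of them without V, against 1 of 394, and for Ighg2c 5 of 32, all without V, against 1 of 439. A contig without a V call is either a transcript that lacks V or an incomplete assembly, and the tables do not separate these. The 161 IgM GC B-like cells with 3 or more UMIs of any downstream gene were deeper, with a median of 14285 UMIs against 7976.5 in the 186 cells without such RNA. Of them, 8.07% had 2 or more productive light chains against 5.38%; the part of droplets with more than 1 cell in this RNA was not tested.

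By genotype, no constant gene of IgM GC B-like cells passed the test. In that class edgeR called 11 of 8142 genes (0.135%) and no member, with log2 fold changes of 1.34 for Ighg2b (SE 0.82, edgeR adjusted p = 0.916), 1.10 for Igha (SE 0.39, adjusted p = 0.916), 0.36 for Ighg1, 0.17 for Ighg3 and -0.33 for Ighg2c; Ighe was too low to be tested. At 2000 UMIs per cell, Ighg2b was seen in 12.6% ± 10.4 of p19-/- and 7.19% ± 3.73 of WT cells (exact two-sided permutation p = 0.6, adjusted 0.933). Ighe was the gene whose ranges did not overlap, at 0.350, 0.570 and 0.534% in p19-/- and 0.969 and 2.13% in WT cells (exact permutation p = 0.2, adjusted 0.933). Unthinned, its shares overlapped and the direction turned, at 6.67, 7.14 and 4.07% in p19-/- and 4.17 and 6.10% in WT cells. Among the T-like cells edgeR called 44 of 10461 genes (0.421%) and no member, with -0.59 (SE 1.00) for Ighg2b.

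IgM-contig mature non-GC B-like cells (240, by mouse 32, 14, 103, 63 and 28) gave a second unswitched population. Ighd was seen in 38.3% ± 5.67 of them at 2000 UMIs and in 2.21% ± 1.16 of IgM GC B-like cells, lower in GC in 5 of 5 mice (exact sign-flip permutation p = 0.063, adjusted over 8 genes 0.167). Ighg1 was higher in GC cells in 5 of 5 mice, at 13.3% ± 5.74 against 5.43% ± 1.93, and so was Ighe, at 0.910% ± 0.718 against 0.0381% ± 0.0853 (both exact p = 0.063, adjusted 0.167). Ighg2b at 10.4% ± 8.14 against 7.09% ± 5.72 and Ighg2c at 4.81% ± 2.52 against 5.83% ± 7.23 overlapped. By genotype, Ighg2b was seen in 9.07, 16.1 and 5.27% of these mature cells in p19-/- and 2.27 and 2.73% in WT mice. The ranges did not overlap (exact two-sided permutation p = 0.2, the smallest possible), and the direction was opposite to that of the whole mature class. Ighd was lower in p19-/-, at 33.6, 31.1 and 40.9% against 41.5 and 44.4% (exact permutation p = 0.2). Of the 8 genes, only Ighg2b and Ighd had genotype ranges apart in these cells, and their p-values were not adjusted. With 10 splits, such a separation is not rare among 8 genes.

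Set out by contig, each GC B-like population held its own gene most often. At 2000 UMIs, Ighm was seen in 12.6% ± 2.54 of IgG1, 8.54% ± 3.81 of IgG2b and 9.14% ± 5.58 of IgG2c cells (n = 5 mice), below the 64.7% ± 2.52 of T-like cells. Ighg3 RNA was seen in 6.13% ± 2.59 of IgM cells and in 2.28% ± 0.760, 0.696% ± 0.481 and 2.85% ± 0.984 of IgG1, IgG2b and IgG2c cells, lower in 5 of 5 mice each time. Switching to those isotypes deletes Ighg3 from the switched chromosome, and the other chromosome was not measured. Ighg2b, which switching to IgG2c deletes likewise, lay the other way. It was seen in 5.30% ± 2.38 of IgG2c and 3.59% ± 1.27 of IgG1 cells, higher in IgG2c cells in 4 of 5 mice (exact sign-flip p = 0.125, adjusted 0.232). The part of deletion in these shares was not tested. In 13 such pairs of contig groups, chosen after the values were seen, none could pass 0.05. The 3 Ighg3 pairs gave exact sign-flip p = 0.063, adjusted 0.135.

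Downstream of the contig's gene, Ighg2c RNA was in 11.9% ± 8.18 of IgG2b cells and 1.68% ± 0.788 of IgG1 cells, higher in 5 of 5 mice (exact sign-flip p = 0.063, adjusted 0.135); how much RNA of one of this near-identical pair was counted as the other was not tested. Ighe RNA was in 3.05% ± 0.474 of IgG2c cells and 0.910% ± 0.718 of IgM cells, also higher in 5 of 5 mice. Igha RNA in IgG2c cells spread widely, up to 24.1% in p19-/- 1 against 3.10% in the lowest mouse.

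**Figure D4:**
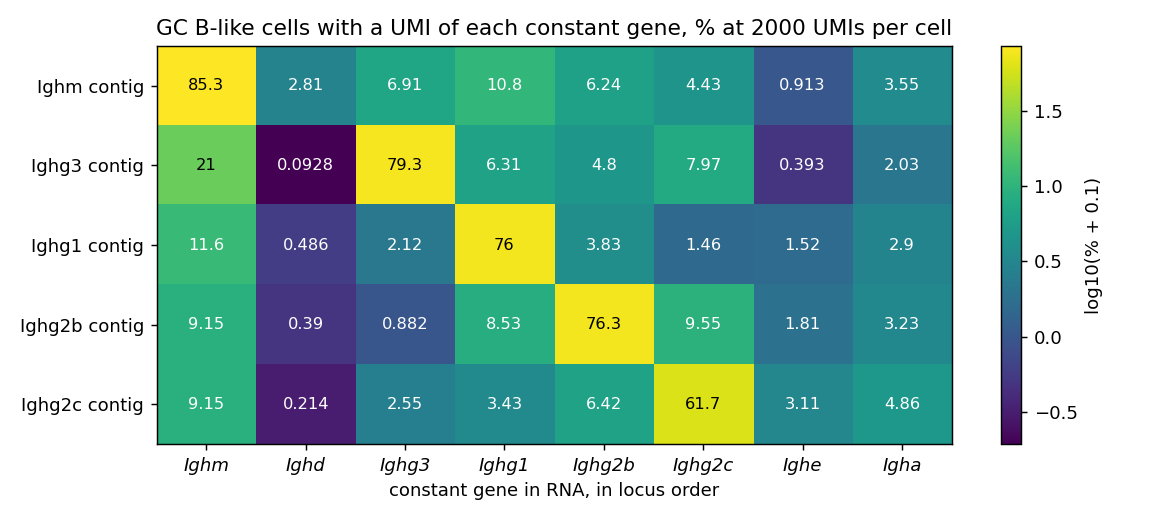
Percentage of GC B-like cells, pooled over 5 mice, with a UMI of each constant gene (columns, in locus order) after thinning to 2000 UMIs, by the constant gene of the top contig (rows), with colour on a log10 scale. The diagonal runs from 61.7% (Ighg2c) to 85.3% (Ighm), and Ighg3 is lowest in IgG2b cells at 0.882%.

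T-like cells were a low background for the switched genes but not for Ighm. They held Ighm at 740, 733, 794, 679 and 721 CPM, within the mature non-GC B-like range, and 77.8% ± 3.05 of them had an Ighm UMI, against 16.6% ± 7.83 of macrophage or monocyte-like cells, whose median depth was 1613 UMIs. At 2000 UMIs per cell the shares were 64.7% ± 2.52 and 14.4% ± 5.06. Against macrophage or monocyte-like cells, edgeR called 5479 of 10277 genes (53.3%, with 26.7% higher in T-like cells), with Ighm 2.68 (SE 0.18, adjusted p = 2.33e-14) and Ighd 1.59 (SE 0.46, adjusted p = 0.00435) higher in T-like cells; without p19-/- 1, Ighd was at 1.01 (edgeR adjusted p = 0.0605). Ighg1, Ighg2b and Ighg2c gave 0.00, 1.13 (edgeR adjusted p = 0.0738) and 0.29, and Ighg2b passed without p19-/- 3 (1.33, adjusted p = 0.0360) and without WT 2 (1.31, adjusted p = 0.0423).

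In the V(D)J libraries, 487 of 3824 T-like cells (12.7%) had a contig joining an IGHJ segment to Ighm without a V, and 462 (12.1%) one joining a J segment of another locus to Ighm; 2 of 560 macrophage or monocyte-like cells had any contig of Ighm without V. By mouse, the first share was 22.9, 19.6, 12.3, 9.96 and 5.18%. Contigs joining Ighe to a J of another locus were in 42 T-like cells, although Ighe RNA gave 1 UMI there. Summed B cell markers in T-like cells were at most 163 CPM, so that B cell RNA at that level was present beside Ighm, and its part was not tested.

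Light and dark zone ends of the IgM GC B-like cells were compared by a score of zone genes that holds no constant gene. Any downstream constant gene was seen in 41.1% ± 11.9 of light-zone-end cells and 29.0% ± 7.33 of dark-zone-end cells at 2000 UMIs, higher in 5 of 5 mice (exact sign-flip permutation p = 0.063, adjusted over 8 measures 0.5). By gene, Ighg1 was at 18.2% and 9.83% (higher in 3 of 5 mice) and Ighg2c at 5.65% and 2.72% (4 of 5). The ends held 5 to 82 cells per mouse, and the light end was shallower, at 10245 against 17688 UMIs.

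Some cells sharing 1 heavy-chain junction were read with different constant genes. The rest of their V sequence was not compared. There were 136 clones of 2 or more cells with the same V, J and junction nucleotides in 1 mouse (688 cells), of which 28 used more than 1 constant gene, 18 joined Ighm and an IgG gene or Igha, and 8 joined Ighg2b and another IgG gene. The junctions of 5 of the largest mixed clones are shown because each was read with more than 1 isotype on an unchanged junction; capitals mark the codons of the conserved cysteine and tryptophan, and the sequences come from the deposited contig tables (chromosome 12).
WT 1, IGHV1-26 with IGHJ4, 23 cells: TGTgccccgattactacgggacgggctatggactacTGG
WT 2, IGHV9-2 with IGHJ4, 20 cells: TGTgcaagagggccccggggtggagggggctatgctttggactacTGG
p19-/- 3, IGHV1-69 with IGHJ4, 13 cells: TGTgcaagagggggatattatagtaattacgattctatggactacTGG
p19-/- 3, IGHV14-2 with IGHJ2, 10 cells: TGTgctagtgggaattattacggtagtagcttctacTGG
p19-/- 1, IGHV1-80 with IGHJ4, 7 cells: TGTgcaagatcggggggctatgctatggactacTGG

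The WT 1 clone held 11 IgG2b, 10 IgG2c and 2 IgM contigs, while its RNA averaged 34.0 Ighg2b and 2.35 Ighg2c UMIs per cell. Summed over its cells, most of its RNA was thus counted as Ighg2b, while its contigs were split between the near-identical pair. Of its 23 cells, 1 was plasma cell-like, and that cell's part of this RNA was not tested. Among all GC B-like cells of WT 1 with an IgG2c contig, 84.5% were led by Ighg2c. The IGHV1-69 clone of p19-/- 3 held 12 IgM contigs and 1 IgG1 contig, with mean RNA of 29.8 Ighm and 24.7 Ighg1 UMIs per cell. Of its 13 cells, 1 was plasma cell-like. The WT 2 clone, with 19 IgM contigs and 1 IgG1 contig, averaged 253 Ighm and 5.45 Ighg1 UMIs, and 7 of its 20 cells were plasma cell-like. The IGHV14-2 clone had 7 IgM, 1 IgG3, 1 IgG1 and 1 IgG2c contigs with 382 Ighm UMIs per cell on average, and 3 of its 10 cells were plasma cell-like. The p19-/- 1 clone had 6 IgG2b contigs and 1 IgM contig with 15.3 Ighg2b UMIs per cell.

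The largest clone of all held no switched contig. In p19-/- 1, 227 cells shared a junction of IGHV1-80 with IGHJ4, 219 with IgM and 8 with IgD contigs, and 216 of them fell in the unnamed B clusters. They averaged 3.11 Ighm UMIs per cell and 0.0176 Ighg2b UMIs.

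Genes that act on the locus were read in the same fits, by lists. Between GC and mature non-GC B-like cells, 26.6% of all genes tested were higher and 26.7% lower. Of 24 genes of switch recombination, 20 were tested between GC and mature non-GC B-like cells, 13 were higher and 1 lower in GC B-like cells, with a median log2 difference of 0.82 against -0.02 over all genes. The higher ones included Ung (1.89), which removes uracil from DNA, the mismatch repair gene Msh6 (1.92), the exonuclease gene Exo1 (3.41), and Lig4 (3.06), the ligase of end joining; Xrcc4, its partner, was at -0.55. Of 17 receptors for switch-inducing signals 13 were tested, 10 lower and Tgfbr1 (0.89) higher; the lower ones included the interferon gamma receptor genes Ifngr1 (-0.98) and Ifngr2 (-1.80), Il4ra (-0.92), Cd40 (-0.78) and the nucleic acid sensor Tlr7 (-4.99).

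Of 25 transcription factors of germline promoters 24 were tested, 5 higher and 13 lower, with Stat6 (-0.90), which acts downstream of IL-4, Tbx21 (-1.58), which acts downstream of interferon gamma, Nfkb1 (-1.09) and Irf4 (-1.64) among the lower and Pou2af1 (1.06) and Pax5 (0.34) among the higher. The median of the list was -0.52. All 4 light-chain constant genes were lower, Igkc (-0.24), Iglc1 (-1.27), Iglc2 (-2.14) and Iglc3 (-1.28), as were the receptor partners Cd79a (-0.96) and Cd79b (-0.62), while Jchain, which links IgM and IgA polymers, was higher (1.98). Of 6 genes of secreted against membrane heavy-chain processing 5 were tested, with Cstf2 (0.73), Xbp1 (1.16) and Elavl1 (0.85) higher and Prdm1 (-1.07) lower. All 12 dark zone genes were higher, and of 16 light zone genes 13 were lower and Slamf1 (0.39) higher, though some of these helped to define the clusters. Between genotypes, no gene of any of these lists passed in the 5 classes tested.

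The genes outside the immunoglobulin loci whose log2 CPM ran most like the members over 40 class-by-mouse sums included Mzb1, Derl3 and Txndc5, genes of the secretory pathway; the sums share libraries, and the correlations are a description. Ighm was most like Sec11c (Pearson's r = 0.90), Ppib (0.89) and Cope (0.87), and Ighg2b most like Txndc5 (0.89), Mzb1 (0.88) and Sntg2 (0.88). Sntg2, Srms, Mzb1 or Derl3 were the nearest genes of Ighg3, Ighg1, Ighg2c, Ighe and Igha. Ighd differed, with Ahdc1, Snx2 and Wdfy1 at 0.74 to 0.75.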

How the data were processed

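The submitters' processing notes name Cell Ranger 3.0.2, STAR and mm10. The authors deposited UMI counts of each gene in each barcode without normalization (RNA), and tables of assembled contigs with their read and UMI counts, length, segments and CDR3 (BCR). Strand use in counting is not given in the sources used here. Barcodes with over 10% mitochondrial UMIs or under 200 genes were removed. Scrublet's automatic threshold marked 23 cells (0.246%), so the expected number of highest scores (0.8% per 1000 cells, 186 cells) was removed instead. Clustering used scanpy 1.11.5: 2000 variable genes, 20 components, 20 neighbours and Leiden resolution 1 (leidenalg 0.10.2), giving 21 clusters, without immunoglobulin, T cell receptor and sex-linked genes or list genes that are not markers. UMI counts were summed per mouse and class and tested in edgeR 4.0.16 (TMM, filterByExpr, quasi-likelihood F test, Benjamini-Hochberg over all genes, 0.05), after a test on simulated data. CPM scale a class sum to the same total in each mouse. Thinning to 2000 UMIs used the expected share of cells with a UMI. Contigs were joined by barcode, and the mouse was the replicate; 1 mouse per library, per the labels. Named genes are the 8 members, list genes that passed (some are not reported here) and, for each member, the 3 genes with the highest correlation. Members, lists and comparisons were chosen with earlier results of these data known. Coordinates come from a RefSeq table of GRCm38.p6. Alternatives were DESeq2 1.42.0, no filter on low counts, a replicate block, sex as a covariate, each library left out, doublets kept, a 20% mitochondrial limit and unthinned cells. Not every alternative was run for every fit. Intervals and limits of 0 cover counting error only.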

Additional observations from a re-analysis of the deposited data

Results flagged for a closer look

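Ighg3 differed between the genotypes in how GC B-like cells compared with mature non-GC B-like cells. On the log2(CPM + 1) scale, the difference of GC B-like over mature non-GC B-like cells was 0.33, 1.65 and 0.27 in p19-/- 1, 2 and 3 and -0.23 and -0.11 in WT 1 and 2, so that every p19-/- mouse was above 0 and every WT mouse below. The means were 0.75 and -0.17, and they differ by 0.917. In the fit of all genes, the interaction gave 0.87 for Ighg3 (SE 0.36, unadjusted p = 0.0376, edgeR adjusted p = 1), so the difference did not pass. The mature non-GC B-like sums behind it held 8, 13, 93, 54 and 38 Ighg3 UMIs.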

How the results depend on the processing

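Between IgM GC B-like and T-like cells, the calls of the 8 constant genes kept their direction and passed under every alternative run for that fit. So did the lower Ighm, Ighd and Igha in GC than mature non-GC B-like cells. For both fits these alternatives were DESeq2, no filter on low counts and each library left out. Doublets kept, the 20% mitochondrial limit and sex as a covariate were not run for them. The cause of other shifts was not tested. Counts of all genes called between genotypes moved most. In GC B-like cells (2) they were 53 with DESeq2, 272 with no filter on low counts, 36 with a replicate block, 8 with sex as a covariate and 1 to 11 leaving out 1 library. In mature non-GC B-like cells (3) they were 8, 132, 52, 11 and 3 to 11, with 0 when doublets were kept and 6 at a 20% mitochondrial limit. In plasma cell-like cells (4) they were 16, 161, 100 and 0, and 0 to 38 leaving out 1 library (27 without WT 1 and 38 without WT 2). In IgM GC B-like cells (11) no filter gave 89, the block 118, sex 5 and leaving out 1 library 5 to 23; in T-like cells (44) no filter gave 334, the block 442 and leaving out 1 library 7 to 70.0. Where a WT library was left out, the lone WT sample was assumed to vary like the p19-/- samples.

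Whether replicate numbers pair the mice is not settled by these data. Same-numbered p19-/- and WT sums deviated from their genotype means with r = -0.06 and 0.03 over 10504 genes. With 2 WT mice the deviations of WT 1 and WT 2 mirror each other, so both values rest on the same WT difference. The block leaves p19-/- 3 without a partner. Under the replicate block, IgM GC B-like Ighg2b (2.04, edgeR adjusted p = 4.19e-07) and plasma cell-like Ighe (-6.84, adjusted p = 2.01e-05) passed, and with no filter mature non-GC B-like Ighg2c (-0.73, edgeR adjusted p = 0.0283).

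These genotype differences changed sign, none past the threshold on either side. With the replicate block, log2 values were -0.28, -0.19 and -0.17 for GC B-like Ighm, Ighd and Ighg3, -0.13, -1.05 and -0.30 for the same genes in IgM GC B-like cells, and 0.34 for plasma cell-like Ighg2b. With sex as a covariate they were -0.29 and -0.25 for GC B-like Ighm and Ighd, 0.31 for plasma cell-like Ighg2b, and -0.11, -1.03, -0.30 and 0.082 for IgM GC B-like Ighm, Ighd, Ighg3 and Ighg2c. The only male was p19-/- 3, so the sex covariate left the genotype difference to p19-/- 1 and 2 against WT. An effect of sex cannot be told apart from that mouse. With doublets kept and at the 20% limit, GC B-like Igha was -1.09 and -1.20, mature non-GC B-like Ighg1 0.41 and 0.33, and T-like Ighg2c -0.32 and -1.05; IgM GC B-like Ighg1 was -1.02 at 20%. DESeq2 gave -0.14 for IgM GC B-like Ighd and -0.016 for Ighg2c in T-like over macrophage or monocyte-like cells.

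In shares of IgM GC B-like cells, the p19-/- minus WT difference in percentage points was 1.83, 2.59, 3.26 and 0.826 for Ighd, Ighg3, Ighg2c and Ighe without thinning, and 0.201 and 0.286 for Ighd and Ighg3 with doublets kept. As a mean of each cell's own share, plasma cell-like Ighg2b differed by -0.104. On the CPM scale, the log2 ratio of Ighd over T-like cells was -1.69.

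Leaving out 1 library gave these ranges. GC B-like log2 fold changes: Ighm -0.29 to 0.77, Ighd -0.28 to 1.08, Ighg2b -0.60 to 0.013, Ighe -0.37 to 0.45, Igha -0.10 to 0.89. Mature non-GC B-like: Ighd -0.56 to 0.48, Ighg3 -1.49 to 0.034, Ighg1 -1.08 to 0.55, Ighe -1.19 to 0.90, Igha -0.33 to 0.12. Plasma cell-like: Ighg3 -4.41 to 1.34, Ighg2b -0.40 to 0.35, Igha -1.86 to 1.64. IgM GC B-like: Ighm -0.10 to 0.46, Ighd -0.51 to 1.09, Ighg3 -0.28 to 0.50, Ighg2c -0.93 to 0.29. T-like: Ighg1 -0.28 to 0.68, Ighg2b -3.42 to 1.51, Ighg2c -2.53 to 0.77. GC over mature: Ighg3 -0.11 to 0.32, Ighe -0.58 to 0.016. T-like over macrophage or monocyte-like: Ighg1 -0.26 to 0.48. IgM GC over T-like Ighd log2 ratio: -0.032 to 0.34. Share differences in IgM GC B-like cells, in points: Ighd -1.07 to 0.593, Ighg3 -2.75 to 1.53, Ighg1 -1.24 to 5.51, Ighg2c -2.91 to 0.334. The Ighm share of GC B-like constant-gene UMIs differed by -6.16 to 8.45 points.

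Depth limits Ighe and Ighd, the least counted genes, and p19-/- 1 and 2 rest on 15 and 28 IgM GC B-like cells.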

Other observations

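The unnamed B clusters held 560 cells (308, 75, 89, 50 and 38), and their constant-gene RNA differed by mouse. In p19-/- 1, Ighm made up 90.2% of their constant-gene UMIs, and the 216 cells of 1 IgM and IgD clone lie among its 308 cells. In p19-/- 3, Ighg1 made up 77.1% (330 UMIs, 2656 CPM, 7.58% of them in 1 cell), with 20 IgG1 contigs among 89 cells. In the other 4 mice Ighg1 made up at most 14.8%. The clusters carry no cell type name. For Ighg1 the genotypes overlapped (exact two-sided permutation test, p = 0.8, adjusted over the 8 genes 1). For Ighg2b and Ighg2c they did not overlap, and both shares were lower in p19-/- mice. Ighg2b made up 1.92% ± 2.13 in p19-/- and 13.1% ± 2.75 in WT mice. Ighg2c made up 1.05% ± 1.05 and 5.51% ± 3.08 (exact permutation p = 0.2 for each gene, the smallest possible, adjusted 0.8).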
